A study of Mus musculus with 8 samples.

Results

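The genes described here are 7 receptor genes of the interleukin-1 (IL-1), interleukin-17 (IL-17) and tumour necrosis factor (TNF) families, Il1r1, Il1rap, Il18r1, Il17ra, Il17rc, Tnfrsf1a and Tnfrsf1b, together with Nfkbia and Tnfaip3, which encode inhibitors of the pathway these receptors share. They are 9 of the 55335 genes in the deposited count table, found by their symbols in GENCODE release M21, and 8 of them passed the filter on low counts. RNA was measured in the vagal ganglia of wild-type mice treated with HDM (house dust mite, whose extract acts as an airway allergen) and of wild-type mice treated with saline, at 1.5 h after challenge number 4. Each group had 4 libraries, numbered by the batch they belong to, and per the series' design text each library is a pool of 6 to 8 ganglia from 3 to 4 mice. Both groups carry the same wild-type genotype, and age, sex and background strain are not stated in the sources used. In a whole ganglion, fewer cells of a type and less RNA per cell cannot be told apart.

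IL-1 is bound by the receptor chain encoded by Il1r1, which then recruits the accessory chain encoded by Il1rap. IL-17A and IL-17F act through a receptor built of the chains that Il17ra and Il17rc encode, and TNF through 2 receptors, TNFR1 (Tnfrsf1a) and TNFR2 (Tnfrsf1b). All of these receptors can activate the transcription factor NF-kB. Nfkbia encodes IkBa, which holds NF-kB in the cytoplasm, and Tnfaip3 encodes A20, a ubiquitin-editing enzyme that dampens signalling upstream of NF-kB. Both inhibitor genes are themselves classical NF-kB targets, so their RNA is often used as a readout of the pathway. Sensory neurons, glia, endothelium, fibroblasts and macrophages can all carry some of these receptors.

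The promoters of Nfkbia and Tnfaip3 are shown because these genes serve as the NF-kB readout in the comparison. Each window runs from 250 bases before to 50 bases after a RefSeq start site (build GRCm38.p6), and the capitals mark matches to the 10-base NF-kB consensus known as the kappaB motif, searched on both strands. The Nfkbia window lies at chr12:55492598-55492897 on the minus strand and the Tnfaip3 window, the first of the start sites listed for that gene, at chr10:19015361-19015660 on the minus strand.
Nfkbia: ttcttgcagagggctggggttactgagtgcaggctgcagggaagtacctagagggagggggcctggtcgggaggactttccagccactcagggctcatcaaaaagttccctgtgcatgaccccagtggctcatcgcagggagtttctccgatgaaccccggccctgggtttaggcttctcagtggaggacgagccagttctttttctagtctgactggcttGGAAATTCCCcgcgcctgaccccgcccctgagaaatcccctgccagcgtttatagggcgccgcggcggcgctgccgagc
Tnfaip3: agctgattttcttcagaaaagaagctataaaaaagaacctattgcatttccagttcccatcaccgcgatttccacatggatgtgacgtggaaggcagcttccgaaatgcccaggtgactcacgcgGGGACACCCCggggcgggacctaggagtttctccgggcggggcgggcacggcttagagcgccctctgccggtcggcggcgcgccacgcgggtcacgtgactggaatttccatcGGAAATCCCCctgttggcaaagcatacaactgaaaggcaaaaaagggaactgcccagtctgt
The match in Nfkbia begins 29 bases before the start site, and those in Tnfaip3 begin 125 and 12 bases before it. The match at 125 bases fits the motif on both strands and is counted once. Of all 32851 promoter windows in the RefSeq table, 8.46% hold at least 1 such match and 1.22% at least 2. Windows were found for 8 of the 9 genes, all but Il17ra. Beside the inhibitors only Il1r1 had a match, in 1 of its 2 windows. These matches are letters in a sequence and were not measured as binding sites.

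Levels were compared between genes per exon length, as RPKM (CPM divided by the exon length in kilobases, with CPM the deposited counts scaled to library size with TMM factors). Nfkbia was the most abundant of the 9, with a mean over the libraries of 21.7 ± 2.21 RPKM (SD, n = 8). Tnfrsf1a came next with 7.13 ± 0.771 RPKM and was the most abundant receptor. Il17rc had 2.57 ± 0.326 RPKM, Il1r1 2.17 ± 0.414 RPKM, Tnfrsf1b 1.74 ± 0.31 RPKM and Il1rap 1.4 ± 0.088 RPKM. The ranges of neighbours among these 4 receptors overlapped over the libraries, and each neighbour stood above the next in 7 of 8 libraries, so their order is only weakly resolved. Il17ra had 0.499 ± 0.117 RPKM and Tnfaip3 0.412 ± 0.0723 RPKM. Il17ra stood above Tnfaip3 in 5 of 8 libraries, so the order of that pair is not resolved. Il17ra, the chain shared by several IL-17 receptors, was thus below its partner chain Il17rc on this scale. Il18r1, which encodes the binding chain of the IL-18 receptor, was last with 0.0357 ± 0.02 RPKM.

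**Figure D1:**
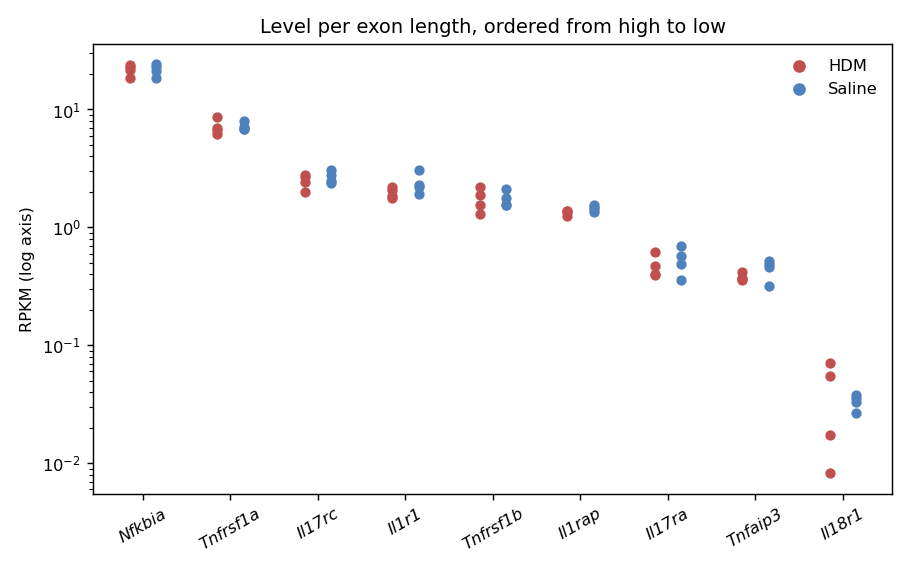
RPKM (log axis) of the 9 genes in each library, ordered from the highest mean to the lowest, with 4 HDM points left of 4 saline points for each gene. Nfkbia and Tnfrsf1a stand clear of the rest, and Il18r1 lies far below every other gene.

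After HDM none of the genes that could be tested passed the test. Of these 8, 0 were called in either direction (edgeR quasi-likelihood test, adjusted p between 0.284 and 0.996), and 0 had an unadjusted p under 0.05. Over all 17618 genes tested 244 were called, a background of 1.38%, and 18.1% had an unadjusted p under 0.05. With the batch as a block, 713 genes were called, a background of 4.05%, and again 0 of the 8. In that fit 1 of the 8, Il1r1, had an unadjusted p under 0.05. DESeq2 and limma-voom also called 0 of the 8, with lowest adjusted p of 0.189 and 0.326 and with 1 and 0 genes at an unadjusted p under 0.05. DESeq2 gave no adjusted p for Il17ra and Tnfaip3 (unadjusted p = 0.439 and 0.18), so it could call only the other 6. In 0 of the 8 genes were the HDM and saline libraries fully separated, against a background of 10.6% of genes tested. The fold changes were small, and 7 of 8 were below 0 on the log2 scale, with a median of −0.11 against −0.01 over all genes tested, where 9067 of 17618 were below 0. These signs are a description, since members of a pathway measured in the same 8 libraries are not independent.

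The IL-1 receptor chains had the lowest p among the receptors. Il1r1 (ENSMUSG00000026072, GRCm38 chromosome 1, 40225080 to 40317257) had 13.9, 11.2, 13.2 and 11.7 CPM in HDM 1 to 4, against 19.7, 14.4, 14.1 and 12.2 CPM in saline 1 to 4. Saline 1 stood above every other library, saline 2 and 3 lay just above the HDM range, saline 4 lay inside it, and HDM was lower than saline in each of the 4 batches. Its log2 fold change, HDM over saline, was −0.27 (SE 0.128, 95% interval −0.54 to 0.01, edgeR adjusted p = 0.284), and without saline 1 it was −0.12 (edgeR adjusted p = 0.545). With the block it was −0.26 (edgeR adjusted p = 0.149).

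Il1rap (ENSMUSG00000022514, chromosome 16, 26581704 to 26730117) had 15.8, 15.4, 15.7 and 14.3 CPM in HDM 1 to 4, against 17.5, 16.3, 16.9 and 15.2 CPM in saline 1 to 4. Its libraries lay close together, HDM was lower in each batch, and the groups overlapped only through saline 4. The log2 fold change was −0.11 (SE 0.0712, 95% interval −0.26 to 0.05, edgeR adjusted p = 0.463), and −0.03 after a correction for GC content. One annotated gene on the opposite strand shares 4.86% of its exon bases, and whether counting used strand is not stated in the sources used. Il1r1 and Il1rap were the only ones of the 8 that were lower in HDM in all 4 batches, a pattern seen in 12.8% of all genes tested.

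Il18r1 (ENSMUSG00000026070, chromosome 1, 40465552 to 40500854) was near the detection limit. It had 2, 9, 1 and 7 counts in HDM 1 to 4, against 5, 5, 5 and 4 counts in saline 1 to 4, a sum of 19 counts in each group. A count of 0 in a library of this depth would allow up to 3 counts, or 0.0959 to 0.125 CPM, and Il18r1 was removed by the filter on low counts. Its partner chain gene Il18rap was at a similar level, with 28 counts summed over the HDM libraries and 26 over the saline libraries. With no filter on low counts Il18r1 differed by 0.19 on the log2 scale (edgeR adjusted p = 0.919). Il18rap was also removed by the filter, and its value with no filter is not reported here.

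Of the IL-17 receptor chains, Il17ra varied more than Il17rc, with a within-group coefficient of variation of 24.7% against 12.9%. Il17ra (ENSMUSG00000002897, chromosome 6, 120463247 to 120487559) had 3.51, 3.43, 5.32 and 4.08 CPM in HDM 1 to 4, against 6, 4.21, 4.93 and 3.08 CPM in saline 1 to 4. Both its highest and its lowest library were saline libraries, and batches 1 and 2 went opposite to batches 3 and 4. The log2 fold change was −0.15 (SE 0.196, 95% interval −0.57 to 0.27, edgeR adjusted p = 0.725), and 0.01 without saline 1. Il17rc (ENSMUSG00000030281, chromosome 6, 113471427 to 113483140) had 7.11, 5.37, 7.43 and 6.49 CPM in HDM 1 to 4, against 7.44, 8.22, 6.29 and 6.62 CPM in saline 1 to 4. Its groups overlapped, with HDM 2 lowest and saline 2 highest. Its log2 fold change was −0.12 (SE 0.124, 95% interval −0.38 to 0.15, edgeR adjusted p = 0.665). It was −0.25 after the GC correction, and it was −0.03 without HDM 2.

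The TNF receptors had the smallest differences among the receptors. Tnfrsf1a (ENSMUSG00000030341, chromosome 6, 125349362 to 125362484) had 15.9, 18.2, 17.2 and 22.2 CPM in HDM 1 to 4, against 20.7, 18.3, 17.6 and 17.6 CPM in saline 1 to 4. The HDM group held both the highest and the lowest library. Its log2 fold change was −0.01 (SE 0.0961, 95% interval −0.22 to 0.20, edgeR adjusted p = 0.967). Tnfrsf1b (ENSMUSG00000028599, chromosome 4, 145213463 to 145246870), which encodes the TNF receptor typical of immune and endothelial cells, had 7.2, 4.95, 5.96 and 8.46 CPM in HDM 1 to 4, against 8.03, 6.73, 5.95 and 5.94 CPM in saline 1 to 4. Again HDM 4 was highest and another HDM library, HDM 2, lowest. On the log2 scale the difference was 0.00 (SE 0.157, 95% interval −0.34 to 0.33, edgeR adjusted p = 0.996).

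The inhibitor genes, read here as NF-kB targets, did not pass either. Nfkbia (ENSMUSG00000021025, chromosome 12, 55489410 to 55492647) had 38.4, 29.7, 36.8 and 35.1 CPM in HDM 1 to 4, against 38.8, 36.6, 34.1 and 29.7 CPM in saline 1 to 4. The groups covered nearly the same range. Its log2 fold change was 0.01 (SE 0.0881, 95% interval −0.18 to 0.20, edgeR adjusted p = 0.972), an interval from 0.882-fold to 1.15-fold. Tnfaip3 (ENSMUSG00000019850, chromosome 10, 19000910 to 19015657) had 2.68, 3.01, 2.62 and 2.57 CPM in HDM 1 to 4, against 3.53, 3.76, 2.29 and 3.34 CPM in saline 1 to 4. HDM was lower in batches 1, 2 and 4 and higher in batch 3, where saline 3 was the lowest of all libraries. The log2 fold change was −0.25 (SE 0.164, 95% interval −0.60 to 0.10, edgeR adjusted p = 0.449), an interval from 0.659-fold to 1.07-fold, and it was −0.17 without saline 2 and −0.38 without saline 3.

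**Figure D2:**
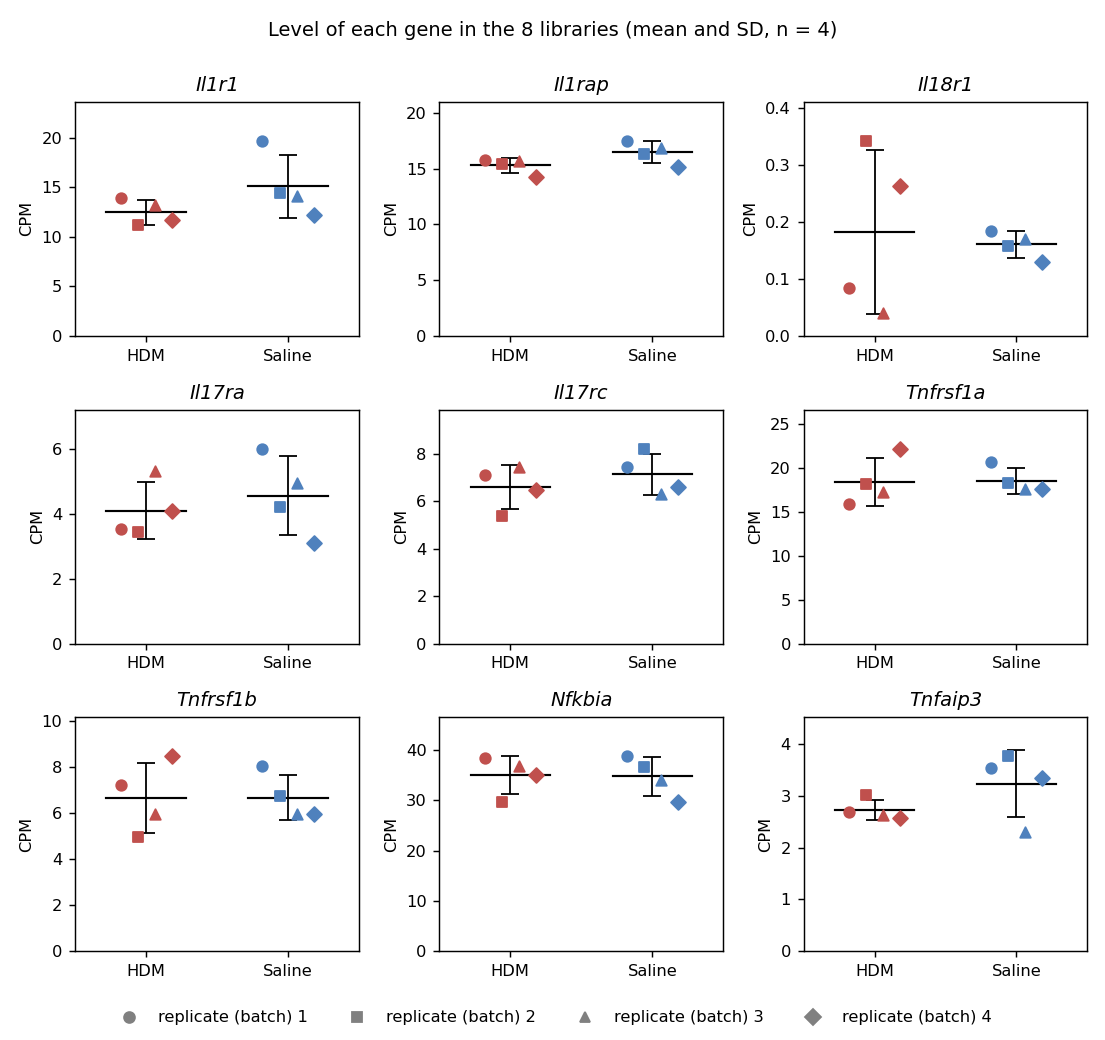
CPM of the 9 genes in each library, HDM left of saline, with 1 marker shape per batch, a line for the group mean and bars for the SD (n = 4). The groups overlap in every panel, and saline 1 is the highest library for Il1r1, Il1rap, Il17ra and Nfkbia.

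The intervals show what these libraries could resolve. The tightest among the receptors was that of Il1rap, 0.836-fold to 1.03-fold, and the widest that of Il17ra, 0.672-fold to 1.21-fold. No interval of the 8 reached a log2 change of 1 in either direction, and the farthest bound was that of Tnfaip3 at −0.60. A p above the threshold does not show that the levels were equal, and changes inside these intervals were not resolved.

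**Figure D3:**
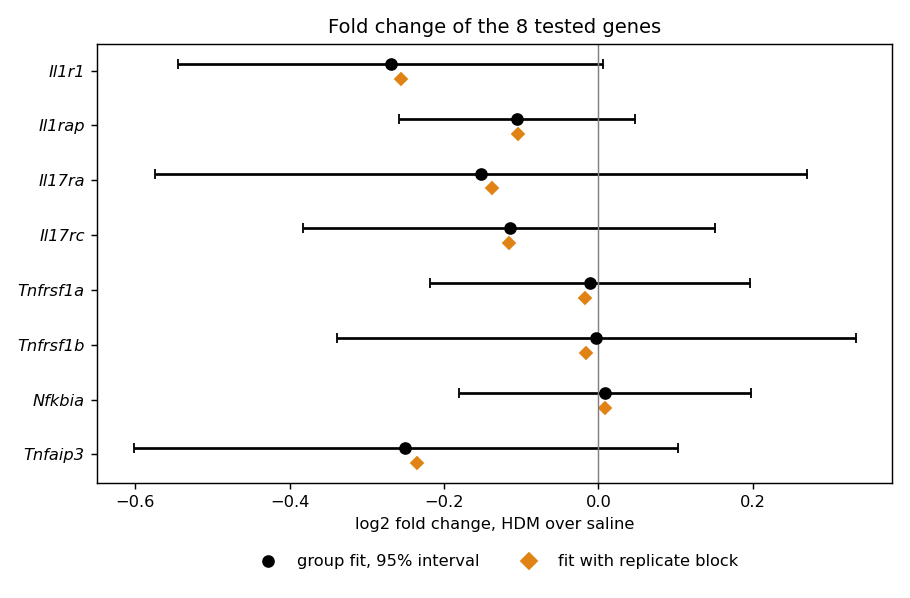
Log2 fold change of the 8 tested genes, HDM over saline, with the 95% interval of the group fit (circles) and the value from the fit with the replicate block (diamonds). Each interval includes 0, and the block moved the values little.

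Within batches the genes did not move alike. Batch 1 had a negative log2 ratio for all 8 genes, from −0.02 for Nfkbia to −0.77 for Il17ra. Batch 4 had positive ratios for Il17ra, Tnfrsf1a, Tnfrsf1b and Nfkbia, of 0.40, 0.33, 0.51 and 0.24, and negative ones for the other 4 genes. Saline 1 was the highest library for 4 of the 9 genes, and HDM 4 for the pair of TNF receptors. Saline 1 also had the highest summed CPM of fibroblast markers (1190 CPM, against 821 to 893 CPM in the HDM libraries and 861 to 1000 CPM in the other saline libraries), of endothelial markers (202 CPM, against 156 to 172 CPM in HDM) and of macrophage markers (96.9 CPM, against 60.7 to 78.6 CPM in HDM). Saline 1 was likewise highest for satellite glia, myelinating Schwann cell, pericyte and smooth muscle, neutrophil and B cell markers. It was not the highest for neuron, T and NK cell, mast cell and eosinophil, or sympathetic neuron markers. The mast cell and eosinophil sum consisted mostly of Kit, which was at 77.2 CPM in saline 1 and highest, at 97.2 CPM, in saline 4. Among its scarce genes, Cpa3 (0.773 CPM), Mcpt4 (0.81 CPM) and Cma1 (0.773 CPM) were highest in saline 1. Tpsb2, Hdc, Fcer1a, Siglecf and Prg2 were highest in other libraries. HDM 4 had the highest sum of sympathetic neuron markers, 878 CPM, against 322 to 369 CPM in the other HDM libraries and 172 to 409 CPM in saline. The part of these cell types in the receptor values was not tested.

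**Figure D4:**
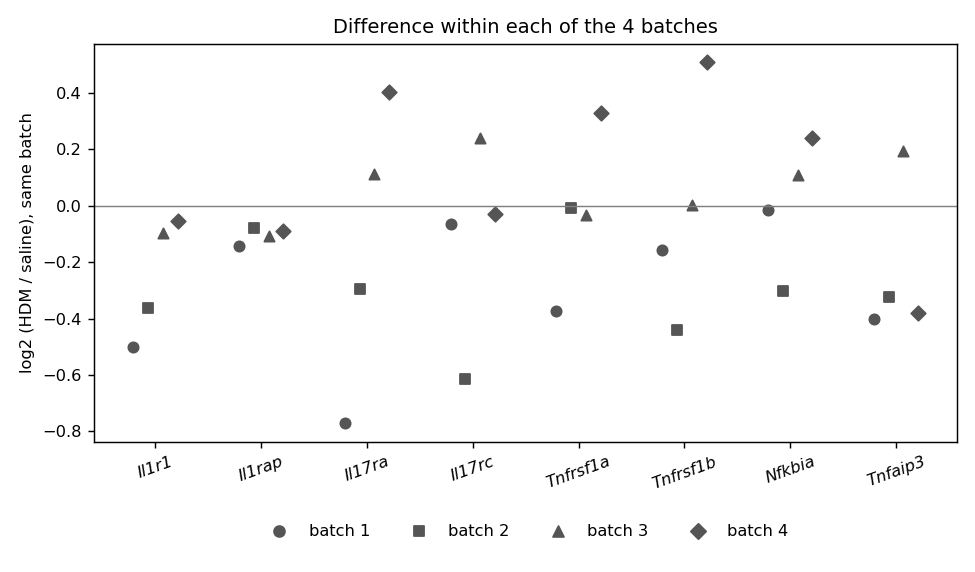
Log2 ratio of HDM to saline for the 8 tested genes within each batch (1 marker shape per batch). Il1r1 and Il1rap lie below 0 in all 4 batches, and Il17ra and Tnfrsf1b spread on both sides of 0.

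The partner chains of the IL-1 receptor varied together over the 8 libraries. Il1r1 and Il1rap had Pearson r = 0.85 on log2 CPM (exact permutation p = 0.00722, adjusted p = 0.0289 over 4 pairs) and Spearman rho = 0.905 (exact permutation p = 0.00456, adjusted p = 0.0183). Without saline 1 and HDM 2, the libraries farthest from the median of Il1r1, r was 0.913 (exact permutation p = 0.00694). After subtraction of the group means r was 0.781 (permutation p = 0.021, adjusted p = 0.0841). That p is only approximate, since values were permuted across the groups although centred values are not independent within a group. Without saline 1 alone r was 0.785 (exact permutation p = 0.029, adjusted p = 0.116). The adjusted p also missed 0.05 without HDM 3 (r = 0.85, exact permutation, adjusted p = 0.0595) and without saline 4 (r = 0.839, exact permutation, adjusted p = 0.0794). Each batch holds only 2 libraries, and the 4 HDM to saline log2 ratios left when batches are compared within themselves are too few for a correlation. In batches 1 to 4 these ratios were −0.501, −0.362, −0.095 and −0.055 for Il1r1, and −0.142, −0.08, −0.106 and −0.09 for Il1rap.

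The other pairs did not pass the test over all 8 libraries. Il17ra and Il17rc had r = 0.428 and rho = 0.5 (exact permutation p = 0.295 and 0.216, adjusted p = 0.393 and 0.432), and r = 0.385 without saline 1 and saline 4. Tnfrsf1a and Tnfrsf1b had r = 0.576 and rho = 0.405 (exact permutation p = 0.136 and 0.327, adjusted p = 0.271 and 0.436). That relation depended on which libraries entered. Without HDM 4 and saline 1 r was −0.599 (exact permutation p = 0.218), without HDM 4 alone it was 0.282 (exact permutation p = 0.559, adjusted p = 0.745), and without HDM 1 it was 0.844 (exact permutation p = 0.0226, adjusted p = 0.0452), which passed the threshold. The inhibitor genes Nfkbia and Tnfaip3 had r = −0.0224 and rho = 0.19 (exact permutation p = 0.955 and 0.665, adjusted p = 0.955 and 0.665), and r = 0.592 without HDM 2 and saline 4.

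For 7 of the tested genes, the gene with the most similar profile was found by the Euclidean distance between log2 CPM values standardised over the 8 libraries, which can reach 5.29 at most. The nearest genes were Rpl22 for Il1r1 (distance 0.507), Zfhx2os for Il1rap (0.801) and Igf2 for Il17ra (0.582). They were Thg1l for Tnfrsf1a (0.788), Tmc4 for Tnfrsf1b (0.508), Scarb1 for Nfkbia (0.569) and Cdh10 for Tnfaip3 (0.791). Each is the closest of all named genes tested, over only 8 libraries, and none was itself another of the 9.

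Of the 7 ligand genes Il1a, Il1b, Il18, Il17a, Il17f, Tnf and Lta, all but Il18 were at or near the detection limit in ganglion RNA. Il17a had 0 counts in all 8 libraries, which allows up to 3 counts in each. Il1a summed to 0 counts over the HDM libraries and 3 over the saline libraries, and Il1b to 4 and 11 counts. Tnf summed to 5 counts in HDM and 2 in saline. Il17f summed to 2 counts in HDM and 17 in saline, and the saline counts came from saline 2 with 8 and saline 3 with 9. Lta, which encodes lymphotoxin alpha, a further ligand of the TNF receptors, summed to 3 counts in HDM and 19 in saline, of which 16 came from saline 2. None of these 6 genes passed the filter. Il1a and Il1b each share exon bases with a gene on the opposite strand. Il18 was detected throughout, with 6.57, 6.24, 6.04 and 5.02 CPM in HDM 1 to 4, against 6.92, 5.64, 6.67 and 7.69 CPM in saline 1 to 4 (log2 ratio of −0.17, SE 0.122, edgeR adjusted p = 0.479). Il33, the alarmin that signals through Il1rl1 and Il1rap, averaged 11.5 ± 2.02 CPM in HDM libraries and 12.7 ± 1.98 CPM in saline libraries (SD, n = 4; −0.15 on the log2 scale, edgeR adjusted p = 0.576). Of the 11 listed ligands and antagonists of the IL-1, IL-18 and IL-33 group 3 were tested and 0 called (median −0.15).

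The 12 lists of the wider pathway held 173 genes, of which 119 were tested. Of these 119, 1 was called (background 1.38% of all genes tested). It was Ngfr, the gene of the low-affinity neurotrophin receptor p75, which belongs to the TNF receptor family by structure and binds neurotrophins. Ngfr rose in HDM, with 948, 885, 823 and 1030 CPM in HDM 1 to 4, against 729, 775, 718 and 794 CPM in saline 1 to 4, and the groups did not overlap. Its log2 fold change was 0.29 (SE 0.064, edgeR adjusted p = 0.0445, and 0.0119 with the block). After the GC correction it was 0.17 (edgeR adjusted p = 0.312), and the call was also lost without HDM 1 (edgeR adjusted p = 0.159), HDM 2 (0.139), HDM 4 (0.12), saline 1 (0.0543), saline 2 (0.0888) or saline 3 (0.163), with RLE size factors (0.0519), with a filter of 1 CPM in 4 libraries (0.0504) and with block and GC correction together (0.151). The summed CPM of 10 neuron markers was 7740 to 8350 CPM in HDM and 7390 to 7680 CPM in saline (2-sided exact permutation p = 0.0286, the lowest value open to 4 against 4 libraries, and adjusted p = 0.343 over 12 marker lists, where a single list cannot pass). Of these 10 markers 7 had a positive log2 fold change and 3 a negative one, so the sum does not describe each of them. Sympathetic neuron markers summed to 322 to 878 CPM in HDM and 172 to 409 CPM in saline. In HDM, HDM 4 was highest for both this sum and Ngfr, and without HDM 4 the log2 fold change of Ngfr was 0.23. In saline, saline 2 was highest for the sum and saline 4 for Ngfr. Satellite glia markers summed to 3140 to 3460 CPM in HDM and 2890 to 3500 CPM in saline. Myelinating Schwann cell markers summed to 2690 to 2960 CPM in HDM and 2810 to 3430 CPM in saline. The part of neuron content, sympathetic or other, and of glial content in the Ngfr value was not tested.

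The list of other TNF receptor family genes, Ngfr included, held 18 tested genes with a median log2 fold change of −0.06. Of these 1 was called higher, Ngfr itself (background 1.23%), and 0 were called lower (background 0.159%). Ltbr, the lymphotoxin beta receptor, had 19.5, 18.5, 18.2 and 19.1 CPM in HDM 1 to 4, against 16.7, 16.2, 15.4 and 14.3 CPM in saline 1 to 4. Its groups did not overlap, yet it missed the threshold (0.27 on the log2 scale with SE 0.0691, edgeR adjusted p = 0.0724, and 0.0217 in DESeq2). After the GC correction its log2 value was 0.14 (edgeR adjusted p = 0.405). The list of TNF ligands had 6 tested genes, 0 called, and a median of −0.24. Its lowest p values were those of Tnfsf10, the gene of the death ligand TRAIL (−0.41, edgeR adjusted p = 0.195), and of the ectodysplasin gene Eda (−0.20, edgeR adjusted p = 0.286).

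Of the other IL-1 receptor family genes 4 were tested and 0 called (median −0.24). Il1rl1, the IL-33 receptor gene, averaged 0.424 ± 0.0789 CPM in HDM libraries and 0.672 ± 0.278 CPM in saline libraries (−0.67 on the log2 scale, edgeR adjusted p = 0.316), and Il1rapl1, a synaptic adhesion relative of Il1rap, had −0.20 (edgeR adjusted p = 0.505). All 3 of the other IL-17 receptor genes were tested and 0 called (median −0.20). Il17rd, which encodes the receptor-like protein Sef, averaged 11.6 ± 1.11 CPM in HDM libraries and 13.3 ± 0.526 CPM in saline libraries (−0.20 on the log2 scale, edgeR adjusted p = 0.227), with groups that did not overlap. Il17rb, the IL-25 receptor gene, had −0.27 (edgeR adjusted p = 0.352). Of the IL-17 ligands 2 were tested and 0 called, Il25 with −0.46 (edgeR adjusted p = 0.532) and Il17d with −0.10 (edgeR adjusted p = 0.831).

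Of the genes downstream of the receptors 0 were called (background 1.38% of all genes tested). At that share lists this short would hold few or no calls. The list of 29 adaptors and kinases had a median log2 fold change of −0.05. Its lowest p values were those of Birc2, which encodes the ubiquitin ligase cIAP1 (39.6 ± 0.54 CPM in HDM and 43.5 ± 0.795 CPM in saline, −0.13, edgeR adjusted p = 0.132), and Map3k7, which encodes the kinase TAK1 (−0.12, edgeR adjusted p = 0.15). The 5 NF-kB subunits had a median of −0.02, with Rel at −0.24 (edgeR adjusted p = 0.212) and Rela at 0.10 (edgeR adjusted p = 0.426). Of the other inhibitors of NF-kB signalling 15 were tested and 0 called, with a median of 0.01. Cyld, a deubiquitinase, averaged 81.7 ± 1.72 CPM in HDM libraries and 90.4 ± 5.21 CPM in saline libraries (−0.15, edgeR adjusted p = 0.131), and the A20-binding partner Tnip1 had 0.17 (edgeR adjusted p = 0.238).

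Among 30 NF-kB target genes 17 were tested and 0 called (background 1.38% of all genes tested), with a median of 0.08. Cebpd, a transcription factor of the acute phase, had 9.88, 8.72, 8.38 and 6.8 CPM in HDM 1 to 4, against 7.58, 7.33, 6.12 and 5.58 CPM in saline 1 to 4 (0.34 on the log2 scale with SE 0.131, edgeR adjusted p = 0.192). HDM was above saline in all 4 batches, a pattern seen in 15.6% of all genes tested. Cebpd, like Il17rb and Il4ra, shares some exon bases with a gene on the opposite strand. Lcn2, which encodes lipocalin 2, had 5.02, 0.381, 0.676 and 1.06 CPM in HDM 1 to 4, against 1.1, 0.637, 0.342 and 0.617 CPM in saline 1 to 4 (1.39 on the log2 scale with SE 0.647, edgeR adjusted p = 0.276). Its value rested on HDM 1 and was 0.07 without it. The cytokine genes Il6 and Cxcl1, named after their values were seen, summed to 6 and 10 counts in HDM and to 6 and 15 counts in saline, below the filter.

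**Figure D5:**
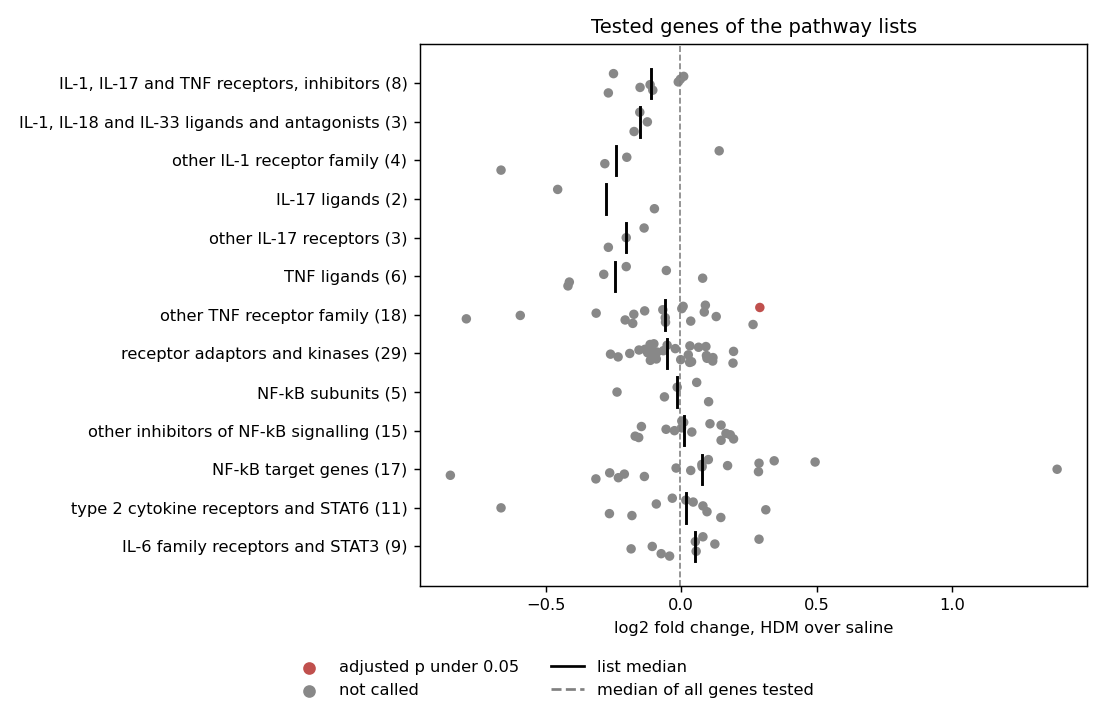
Log2 fold change, HDM over saline, of each tested gene on the pathway lists (number tested in brackets), with a bar for the list median and a dashed line for the median of all genes tested. The called gene is Ngfr at 0.29, and the far point at 1.39 is Lcn2.

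The lists of other cytokine receptor families, which include signalling genes, also gave no call (background 1.38% of all genes tested). The type 2 cytokine receptor list also holds Jak1, Jak2, Jak3, Tyk2 and Stat6, which are not receptors, and the IL-1 family gene Il1rl1. Of this list 11 of 15 genes were tested and 0 called (median 0.02). Il4ra and Il13ra1, which together form the type II IL-4 receptor, had log2 fold changes of 0.15 (edgeR adjusted p = 0.163) and −0.18 (edgeR adjusted p = 0.159). Of the IL-6 family list, which also holds Stat3, Socs3 and Jak1, 9 of 10 genes were tested and 0 called (median 0.05). Osmr and Cntfr, receptor chains of oncostatin M and of ciliary neurotrophic factor, had −0.19 (edgeR adjusted p = 0.0749, and 0.0254 in DESeq2) and 0.12 (edgeR adjusted p = 0.182). In this list the signal-transducing chain Il6st, named after its values were seen, had 45.2 RPKM in HDM and 47.6 RPKM in saline, above each of the 7 receptors described here.

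The libraries held 23952130 to 26670634 counts in HDM and 26868337 to 31281281 counts in saline. The neuron markers fit the tissue label. All 10 neuron markers passed the filter, among them Prph, the gene of the neuronal filament peripherin (1460 ± 57.5 CPM in HDM and 1210 ± 53.9 CPM in saline, SD, n = 4). Prph, at a log2 fold change of 0.27, does not stand for the whole list. Of the 10 markers 7 were above 0 and 3 below, with a median of 0.12, and of 0.05 after the GC correction. Those below 0 were Snap25 (−0.002), Slc17a6 (−0.028) and Elavl4 (−0.042). Glial, vascular and connective tissue markers were present too. Markers of sympathetic neurons were present as well, at 481 ± 265 CPM summed in HDM and 270 ± 103 CPM in saline (SD, n = 4). All 6 had a positive log2 fold change, with a median of 1.01. Of these 6, 5 had an unadjusted edgeR p under 0.05 (background 18.1%) and 0 were called. The source of these transcripts was not tested. Markers of neutrophils and lymphocytes were scarce. Neutrophil markers summed to 1.56 to 4.85 CPM in HDM and 1.4 to 5.93 CPM in saline, with 1 of 8 genes tested, and T and NK cell markers to 3.59 to 4.17 CPM in HDM and 3.31 to 4.37 CPM in saline, with 2 of 9 tested. No marker of either list was at 0 in all libraries. Single markers were called in 4 of the 12 marker lists, namely 1 of 10 neuron markers higher (background 1.23%), and 2 of 9 myelinating Schwann cell, 1 of 8 fibroblast and 1 of 9 satellite glia markers lower (background 0.159%). Summed levels gave no usable test after adjustment over the 12 lists, since 0.0286 is the smallest p that 70 assignments can give.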

How the data were processed

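RNA from vagal ganglia was sequenced as 8 libraries, and per the labels' protocols libraries were stranded mRNA preparations read as pairs of 50 bp. The authors deposited raw counts per gene with gene lengths. Per the submitters' processing notes, counts were made with featureCounts on GRCm38 (mm10). No aligner, version or strand option is stated in the sources used. Of 55335 genes, 55154 had a GENCODE M21 symbol and 54899 the same span.

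Genes were kept with filterByExpr (17618 tested) and compared with edgeR 4.0.16 (R 4.3.3, TMM factors, quasi-likelihood F-test, 2-sided, group as the only term, Benjamini-Hochberg over all genes tested, called at an adjusted p under 0.05). The limma-voom alternative used limma 3.58.1 and the other count test DESeq2 1.42.0. Standard errors are the log2 fold change over the root of F, and 95% intervals use 13.61 degrees of freedom. The GC correction fitted each library's deviation from the gene mean to the GC content of the gene's longest transcript. It used a natural spline (df 4) and entered the fit as an offset. The batch equals the replicate number, so the numbers pair the libraries per the labels. Deviations of same-numbered libraries correlated by −0.048 to 0.039. Log2 CPM used a prior count of 2.

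The fit was tested on simulated data. Floors and intervals on counts cover counting error only. The members, the lists and the naming rule (the 2 lowest p of each list, called genes, all members, their ligands and the nearest profile) were chosen with earlier results of these data known. The nearest profile to Il17rc is not reported here. The series' design text describes each replicate as pooled mice, so p-values measure the spread between pools.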

Additional observations from a re-analysis of the deposited data

Results flagged for a closer look

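In groups of 4, a library was singled out when its gap to the nearest other library exceeded Dixon's critical value of the group's range. Of 90 groups looked at, 6 met this, and chance gives about 1 in 20. None of the 6 concerned the 9 receptor and inhibitor genes. Il1rapl1 was high in HDM 2 (3.05 CPM), Il25 low in HDM 1 (0.251 CPM), Lcn2 high in HDM 1 (5.02 CPM) and Il13ra1 low in saline 2 (22.1 CPM). The B cell marker sum was high in saline 1 (2.21 CPM), and the sympathetic neuron marker sum was high in HDM 4 (878 CPM).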

How the results depend on the processing

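Of the 8 tested receptor and inhibitor genes, 0 were called under each of the 17 alternatives, where DESeq2 gave no adjusted p for Il17ra and Tnfaip3. Near 0, signs turned with no call. Without single libraries Il17ra ranged from −0.302 (HDM 3 left out) to 0.007 (saline 1). Tnfrsf1a ranged from −0.114 (HDM 4) to 0.05 (HDM 1), with 0.021 without HDM 3 and 0.044 without saline 1. Tnfrsf1b ranged from −0.143 (HDM 4) to 0.116 (HDM 2), with 0.048 without HDM 3, 0.097 without saline 1 and 0.002 without saline 2. Nfkbia had −0.004 with no filter, −0.037 with the GC correction, −0.038 with block and GC correction, −0.039 without HDM 1, −0.015 without HDM 3, −0.001 without saline 3 and −0.059 without saline 4. With the GC correction, alone and with the block, Rela had −0.021 and −0.022 and Cntfr −0.003 and −0.002. Il17d ranged from −0.197 (HDM 2) to 0.057 (HDM 3).

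Over all genes 722 were called with no filter, 871 by DESeq2, 713 with the replicate block, 0 with the GC correction (2051 at an unadjusted p under 0.05 in edgeR) and 29 with block and GC correction, against 244. Leaving out single libraries gave 0 to 383 calls, of which 0 when HDM 1, HDM 2 or saline 3 was left out (2434, 2443 and 2369 genes then had an unadjusted edgeR p under 0.05), 61 without HDM 4, 98 without saline 2 and 383 without HDM 3. Among pathway genes, 0 were called with RLE factors, with the stricter filter, and with the GC correction with or without block, 2 with no filter and 3 by DESeq2, against 1, and 0 to 1 without single libraries. The replicate block changed no call of a gene named here.

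For Il1r1 and Il1rap, r was 0.781 after subtraction of group means and 0.785 to 0.9 without single libraries. For Nfkbia and Tnfaip3 it was −0.251 to 0.205, and for Tnfrsf1a and Tnfrsf1b 0.282 to 0.844, where 0.844 (without HDM 1) passed the threshold. As mean log2 CPM, satellite glia markers had −0.081 and pericyte and smooth muscle markers 0.08. The cause of these changes was not tested.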
